A study of Mus musculus with 6 samples.

Results

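The genes of homologous recombination and Fanconi anemia repair were followed in mouse embryonic stem cells with and without Pml, all exposed to paraquat. The members are 36 genes of 24421 in the deposited table, taken by symbol, and all 36 were found and had enough reads to be tested. Of these 36, 1 passed the test: Rad50, which encodes the ATPase subunit of a complex that senses broken DNA ends, fell by 19.2% in Pml-/- cells. The other 35 did not pass. Over all tested genes 5.41% passed, beside 2.78% of the members.

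RNA sequencing (polyadenylated RNA, 4 libraries) was done on E14 cells, an established mouse embryonic stem cell line. Of these, 2 libraries came from wild-type cells and 2 from Pml-/- cells, labelled as knockouts of the gene whose protein builds the shell of PML nuclear bodies. All 4 came from cells given 10 µM paraquat, a herbicide that drives superoxide production inside cells, for 15 h. Both genotypes grew with serum, LIF and a pair of inhibitors, CHIR99021 against GSK3 and PD0325901 against MEK, which hold stem cells in a naive state. No untreated library entered the comparison, so it shows how the genotypes differed under paraquat and not how cells responded to it. Separate cultures are not named for the 2 libraries of a genotype, nor is it said whether the Pml-/- cells were 1 clone. The p-values therefore rest on the spread between these libraries, which the test partly borrows from other genes of similar level. That spread may be technical. The other 2 of the 6 samples, PML-associated chromatin, were not analysed here.

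Homologous recombination mends a broken DNA molecule by copying an intact one. The break is sensed and trimmed to single strands, and BRCA1 and BRCA2 with their partners prepare those strands for pairing with the matching sequence. The Fanconi pathway unhooks crosslinks between the strands and hands the resulting break to recombination. Embryonic stem cells divide fast, spend much of their cycle in S phase and rely heavily on these pathways. PML bodies are known to hold several repair proteins, among them NBN and BLM; protein location was not measured by RNA sequencing.

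Library totals ran from 31384794 to 44130093 reads, so that 1 CPM (1 read per 1000000 reads counted in genes) is 31.4 to 44.1 reads. The Pml transcript itself stood at 238 and 228 CPM in wild-type replicates 1 and 2 and at 78.7 and 89.7 CPM in Pml-/- replicates 1 and 2, lower in both knockout libraries (limma adjusted p = 4.43e-10, log2 fold change -1.46 with SE 0.059). The transcript remained at 36.2% of its wild-type level, and which stretch of the gene was disrupted is not stated. All 4 tested genes of the Y chromosome, looked up after their values were seen, were called lower: Ddx3y read 160.5 and 164 CPM in the wild-type libraries and 8.91 and 8.53 CPM in the Pml-/- ones (limma adjusted p = 4.28e-15). Whatever goes with that difference cannot be told apart from the Pml genotype in these libraries. Of 8 pluripotency markers, all were abundant in all 4 libraries, with summed levels of 6022 to 6283 CPM. Of 8 markers of fibroblast feeder cells, Dcn had no read in any library and Col3a1, Postn and Lum had at most 2, and the 8 summed to 13.7 to 15.7 CPM. Most of that sum came from Thy1, at 4.17 to 5.64 CPM, and Pdgfrb, at 6.31 to 9.88 CPM. The 7 endoderm markers summed to 8.63 to 11.5 CPM. The kit entry of wild-type replicate 2 names only a DNA kit, while those of the other 3 name an RNA kit, and the value of Rad50 and the calls of members that turn on that library are given without it.

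Across all genes, limma on log2(CPM + 1) with a threshold of 0.05 on the adjusted p called 687 of 12710 tested genes, or 5.41%. Among the 36 members the count was 1, or 2.78%. Lower in Pml-/- were 3.45% of all tested genes and 1 member, and higher were 1.95% of all tested genes and 0 members, 1 member being higher at an unadjusted p under 0.05. With edgeR and DESeq2 the counts were also 1 lower and 0 higher. All log2 fold changes here are Pml-/- minus wild type on the log2(CPM + 1) scale, which slightly understates the change of low genes. The median over the members was -0.04, beside -0.003 over all tested genes, and the median size of the change regardless of sign was 0.069 beside 0.086. All tested genes include lower and noisier ones, down to a mean of 1.00 CPM, while the lowest member had a mean of 5.97 CPM. Genes of like level were not set beside the members. Summed over the 36 members the level was 2840 and 2842 CPM in wild-type cells against 2849 and 2866 CPM in Pml-/- cells. The 4 sums thus lay between 2840 and 2866 CPM, with the knockout libraries slightly above. H2afx, the most abundant member, read 534 and 531 CPM in wild-type cells against 558 and 606 CPM in Pml-/- cells. Its rise was larger than that of the sums, so the other members together summed lower in Pml-/- cells. By gene, 23 estimates lay below 0 and 13 above, beside 6480 and 6230 over all tested genes. Pairs of mean ± SD below give wild type first and Pml-/- second, each with n = 2.

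**Figure D1:**
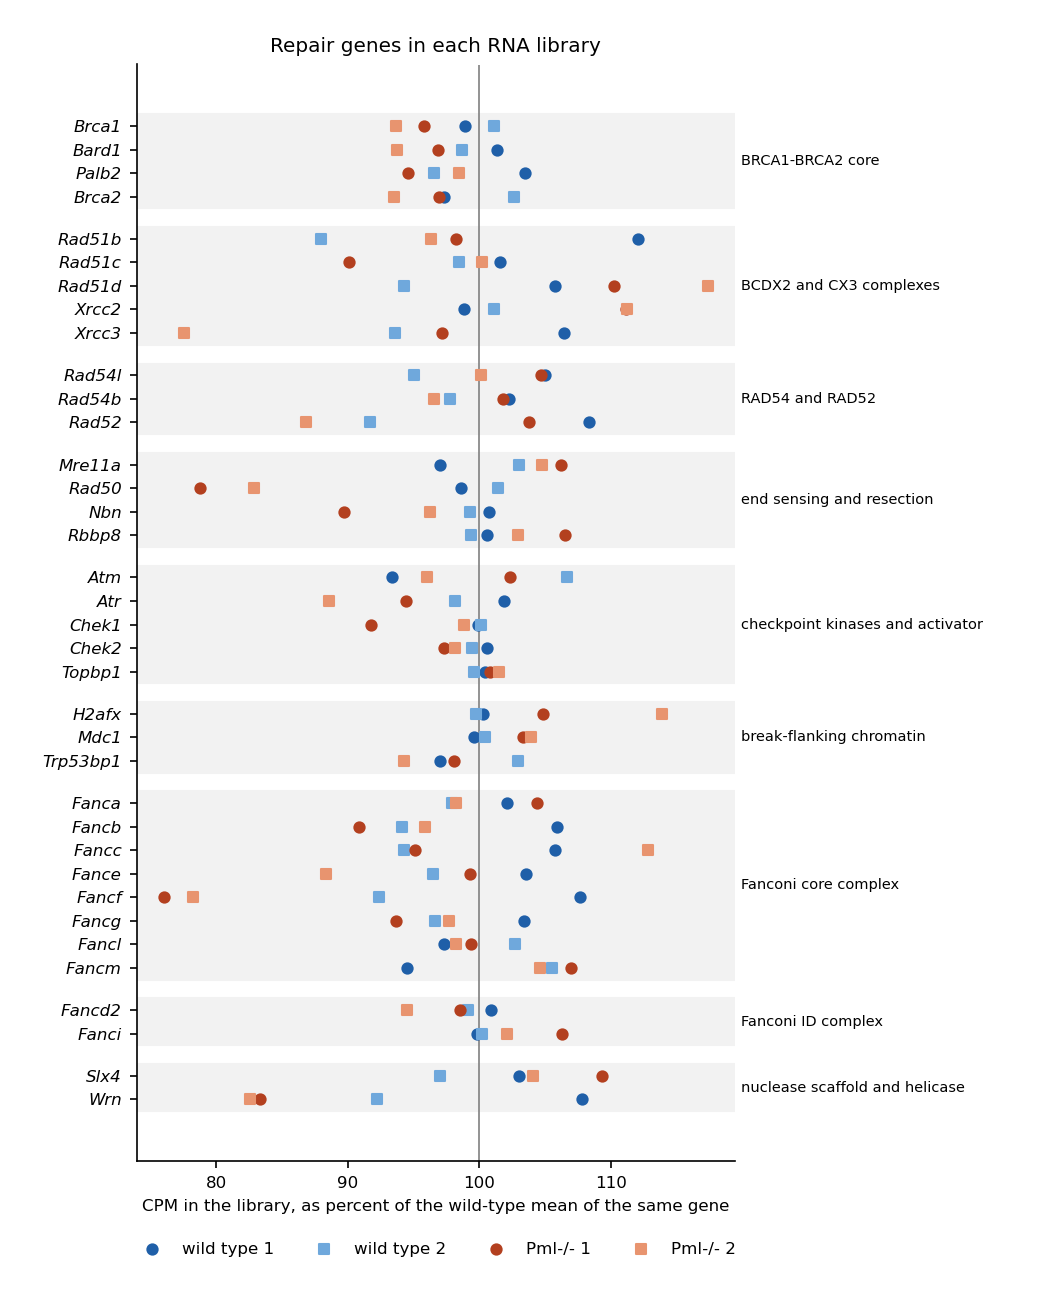
Level of each of the 36 repair genes in each of the 4 RNA libraries, as percent of the wild-type mean of the same gene, with genes on the vertical axis ordered by role and 1 point per library (circles: replicate 1, squares: replicate 2). Rad50 is the member that passed the test, with Pml-/- libraries at 77.1 and 81.2 CPM against 96.6 and 99.3 CPM in wild-type cells.

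The members that sense and trim broken ends held the called change. RAD50, MRE11 and NBN form the MRN complex, in which RAD50 holds the ends together and drives the complex with ATP. Rad50 read 96.6 and 99.3 CPM in wild-type replicates 1 and 2 and 77.1 and 81.2 CPM in Pml-/- replicates 1 and 2. Both knockout libraries lay below both wild-type libraries, by far more than replicates differed from each other. The mean fell from 97.9 ± 1.94 to 79.2 ± 2.86 CPM (SD, n = 2 each), a log2 fold change of -0.30 (95% interval -0.42 to -0.19, SE 0.054, limma adjusted p = 0.00389). The gene had 2943 to 4383 reads per library, for which counting error is at most 1.84%. In bulk RNA, fewer cells of a type or phase and less RNA per cell cannot be told apart.

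The call of Rad50 stood in each of the 11 other settings tried, with adjusted p from 0.000219 to 0.0221 and a log2 fold change from -0.34 to -0.27. Without wild-type replicate 2 it was -0.28 (limma adjusted p = 0.00835). On whole reads recovered from the CPM values, edgeR gave an adjusted p of 0.00689 and DESeq2 0.00167, where these tools called 4.19% and 4.0% of the genes they tested. In the authors' deposited table Rad50 had a false discovery rate of 0.000374, the only 1 of the 36 members under 0.05, where 3.8% of all 24421 genes were. Those 24421 genes include 5660 with no read in any library, while every member had reads.

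Neither partner of RAD50 passed the test. Mre11a, the nuclease of the complex, read 66.7 and 70.8 CPM in wild-type cells against 73.0 and 72.0 CPM in Pml-/- cells. The knockout libraries lay slightly above the wild-type ones (log2 fold change 0.08, 95% interval -0.05 to 0.20, limma adjusted p = 0.515). Nbn, which tethers the complex to break-flanking chromatin and the ATM kinase, read 36.9 and 36.3 CPM in wild-type cells against 32.8 and 35.2 CPM in Pml-/- cells. Here the knockout libraries lay slightly below (log2 fold change -0.10, 95% interval -0.26 to 0.05, limma adjusted p = 0.478). The interval of Nbn overlaps that of Rad50, and that of Mre11a does not.

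Within each library the ratio of Rad50 to Mre11a CPM gives the balance of the 2 transcripts with the library's depth cancelled. It was 1.45 and 1.40 in wild-type cells and 1.06 and 1.13 in Pml-/- cells. The ratio of Rad50 to Nbn was 2.62 and 2.73 in wild-type cells and 2.35 and 2.30 in Pml-/- cells. Both ratios were lower in both knockout libraries. The ratio of Mre11a to Nbn, neither of them called, was 1.81 and 1.95 in wild-type cells and 2.22 and 2.04 in Pml-/- cells, so it was separated as well, in the other direction. With 2 libraries against 2 an exact permutation test (two-sided) cannot go below 0.333, and each of the 3 ratios gave p = 0.333. Rbbp8, which encodes CtIP, the partner that starts trimming with MRN, was at 56.4 ± 0.485 CPM in wild-type cells against 59.0 ± 1.43 CPM in Pml-/- cells, which did not pass (limma adjusted p = 0.614).

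**Figure D2:**
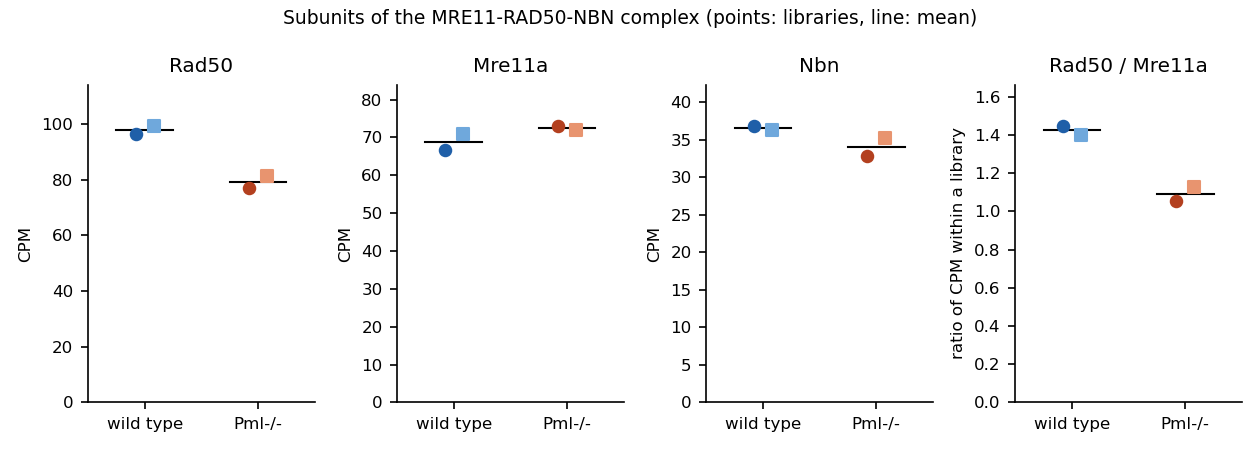
Levels of Rad50, Mre11a and Nbn in CPM and the ratio of Rad50 to Mre11a within each library, by genotype, with 1 point per library and a line at the mean of 2. Rad50 was lower in both Pml-/- libraries (77.1 and 81.2 CPM) than in both wild-type libraries (96.6 and 99.3 CPM), and the ratio went from 1.45 and 1.40 to 1.06 and 1.13.

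Rad50 lies on chromosome 11 from 53649519 to 53707319 (mm10) and overlaps no other RefSeq gene. Of 10 tested genes within 500 kb of it, chosen for naming after their values were seen, 1 passed the test. The nearest 2 did not, Kif3a with a log2 fold change of -0.04 and Irf1 with -0.05 (limma adjusted p = 0.819 and 0.83). The gene that passed was Sept8, 99.9 kb away, which encodes a septin of the cytoskeleton. Its mean fell from 71.2 ± 2.82 to 60.8 ± 3.72 CPM (limma adjusted p = 0.0483, log2 fold change -0.23), and this call was lost in 7 of the 11 other settings, with adjusted p up to 0.273, without wild-type replicate 1. Over the 10 neighbours the median was -0.04, and the 5 members on chromosome 11 also included Brca1, Rad51c, Rad51d and Fancl, none of which passed.

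The BRCA1 and BRCA2 group gave no call among 4 genes. BRCA1 pairs with BARD1 as a ubiquitin ligase and PALB2 bridges BRCA1 to BRCA2, which acts on single-stranded DNA. Brca1 was at 172 ± 2.64 CPM in wild-type cells against 163 ± 2.57 CPM in Pml-/- cells, with all 4 libraries between 161 and 174 CPM (log2 fold change -0.08, 95% interval -0.18 to 0.02, limma adjusted p = 0.399). Bard1 stood at 70.4 ± 1.33 and 67.1 ± 1.56 CPM, and Palb2 at 29.8 ± 1.45 and 28.7 ± 0.814 CPM. Brca2 stood at 106 ± 3.99 and 101 ± 2.54 CPM (limma adjusted p = 0.52). All 4 estimates were slightly negative, between -0.08 and -0.05, and 3 of the 4 genes had no overlap between the groups. None passed the test, and no overlap is common here: 49.3% of all tested genes show it, and 20 of the 36 members. By direction, Pml-/- libraries lay below in 11 members, where 25.5% of all tested genes do, and above in 9, where 23.8% do.

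The 5 genes Rad51b, Rad51c, Rad51d, Xrcc2 and Xrcc3, whose proteins form the small BCDX2 and CX3 complexes that assist recombination, spread to both sides of 0. Xrcc2 read 24.3 and 24.9 CPM in wild-type cells against 27.4 CPM in both knockout libraries, and Rad51d, its direct partner, read 20.8 and 18.6 against 21.7 and 23.1 CPM. For both genes the knockout libraries lay above the wild-type ones. The log2 fold changes were 0.15 for Xrcc2 and 0.18 for Rad51d, and neither passed (limma adjusted p = 0.325 and 0.297). Xrcc3, the partner of RAD51C, stood at 21.5 ± 1.94 and 18.8 ± 2.98 CPM with overlapping groups (log2 fold change -0.19, limma adjusted p = 0.361). With each library left out Xrcc3 ran from -0.35, without Pml-/- replicate 1, to -0.037, without Pml-/- replicate 2, and Rad51d from 0.10 to 0.26, and neither passed in any of these fits. Rad51c was at 29.6 ± 0.663 and 28.2 ± 2.11 CPM and Rad51b at 6.06 ± 1.03 and 5.89 ± 0.0827 CPM. Rad51b is the member with fewest reads, 213 in wild-type replicate 1, where counting error alone is 6.85%, and its interval of -0.32 to 0.27 is the widest of all members.

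RAD54 and RAD52 also act in recombination, the first as a motor that remodels DNA and chromatin during strand exchange and the second by annealing single strands. The groups overlapped for all 3 genes. Rad54l was at 51.6 ± 3.62 CPM in wild-type cells against 52.8 ± 1.64 CPM in Pml-/- cells, Rad54b at 34.1 ± 1.09 and 33.8 ± 1.26 CPM, and Rad52 at 13.9 ± 1.64 and 13.3 ± 1.67 CPM. Their limma adjusted p-values were 0.816 or higher.

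The checkpoint kinases, which halt the cycle and switch on repair, and their activator gave no call among 5 genes. Atr, the kinase that answers to stalled forks and single-stranded DNA, read 71.0 and 68.4 CPM in wild-type cells against 65.8 and 61.7 CPM in Pml-/- cells, with both knockout libraries below. Its log2 fold change was -0.13 with an unadjusted p of 0.0492 and a limma adjusted p of 0.257. Atm, the kinase that MRN activates at breaks, was at 101 ± 9.45 and 100.1 ± 4.49 CPM. Chek1 and Chek2, the kinases they switch on, were at 92.7 ± 0.136 and 88.4 ± 4.65 CPM and at 50.4 ± 0.389 and 49.2 ± 0.313 CPM. Topbp1, which activates ATR, gave the narrowest interval of the members that did not pass, -0.08 to 0.11 around 0.02, with 260 to 265 CPM in all 4 libraries.

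Of the chromatin proteins that mark and read a break, H2AX is the histone that ATM phosphorylates, MDC1 binds the phosphorylated form and 53BP1 holds back trimming. H2afx, the gene of H2AX, read 534 and 531 CPM in wild-type cells against 558 and 606 CPM in Pml-/- cells. Both knockout libraries were above, and they differed from each other by more than the nearer one did from wild type. The log2 fold change was 0.13 (unadjusted p = 0.0149, limma adjusted p = 0.133). Without Pml-/- replicate 1 it was 0.19 and passed (limma adjusted p = 0.0114), and without Pml-/- replicate 2 it was 0.07 (limma adjusted p = 0.463). Mdc1 stood at 196 ± 1.12 and 203 ± 0.858 CPM and Trp53bp1, the gene of 53BP1, at 71.7 ± 3.00 and 68.9 ± 1.93 CPM, and neither passed.

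The Fanconi core complex is the ubiquitin ligase that marks FANCD2 and FANCI at crosslinks, with FANCL as its catalytic subunit and FANCM as the motor that brings it to DNA. Of its 8 genes measured here none passed, and for 7 the groups overlapped. The exception was Fancf, an adaptor subunit, which read 10.4 and 8.88 CPM in wild-type cells against 7.31 and 7.53 CPM in Pml-/- cells. Both knockout libraries lay below. Its log2 fold change of -0.33 was the largest of the members in size, but it rests on 279 to 392 reads per library and did not pass (95% interval -0.59 to -0.08, unadjusted p = 0.0143, limma adjusted p = 0.131). Its annotated span on chromosome 7 (51860577 to 51862267) overlaps that of Gas2, which had a log2 fold change of 0.06, and whether counting used strand is, in the sources used here, not given. In all, 14 of the 36 members overlap another RefSeq gene, 12 of them a coding one.

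The other 7 core genes ran from -0.09 to 0.08 in log2 fold change. Fanca was at 51.8 ± 1.54 and 52.5 ± 2.26 CPM, Fancc at 16.2 ± 1.32 and 16.8 ± 2.03 CPM, and Fancm at 131 ± 10.2 and 139 ± 2.21 CPM. Fancb, on the X chromosome, was at 16.1 ± 1.33 and 15.0 ± 0.576 CPM, Fance at 23.0 ± 1.14 and 21.5 ± 1.78 CPM, Fancg at 38.1 ± 1.81 and 36.5 ± 1.07 CPM, and Fancl at 28.5 ± 1.08 and 28.2 ± 0.238 CPM. Neither substrate of the complex passed the test. Fancd2 stood at 95.4 ± 1.22 and 92.1 ± 2.72 CPM and Fanci at 128 ± 0.389 and 134 ± 3.83 CPM (limma adjusted p = 0.659 and 0.571).

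Slx4 encodes the scaffold that docks nucleases to cut crosslinks and recombination intermediates, and Wrn a helicase with exonuclease activity that is lost in Werner syndrome. Slx4 was at 63.1 ± 2.71 and 67.3 ± 2.34 CPM (limma adjusted p = 0.444). Wrn read 26.7 and 22.9 CPM in wild-type cells against 20.7 and 20.5 CPM in Pml-/- cells, below in both knockout libraries, though the 2 wild-type libraries differed by more than the lower one did from the knockout. The log2 fold change was -0.25 (95% interval -0.45 to -0.06, limma adjusted p = 0.128). Without wild-type replicate 2 it was -0.36 and passed (limma adjusted p = 0.0313), and without wild-type replicate 1 it was -0.15 (limma adjusted p = 0.663).

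Wrn lies on chromosome 8 (33234372 to 33385543), whose 680 tested genes had a median of -0.06 beside 0.0005 for the 12000 tested genes placed elsewhere. On this chromosome 52 genes were called lower and 8 higher (8.82% called), beside 387 and 240 elsewhere (5.2% called). The chromosome was not among the planned comparisons, and no other autosome was counted on its own. Whether such a tilt is unusual among chromosomes was therefore not tested. Of 8 tested genes within 500 kb, 2 were called lower, Tex15 and Gsr, at -0.37 and -0.27 (limma adjusted p = 0.0253 and 0.00672). They lie 131 and 268 kb away. The nearest gene, Purg, 0.076 kb away, had a log2 fold change of 0.07 and did not pass (limma adjusted p = 0.803). Over the 8 neighbours the median was -0.12, with values from -0.37 to 0.07. The call of Tex15 was lost in 6 of the 11 other settings, among them without any 1 of the 4 libraries (limma adjusted p from 0.0519 to 0.0993, and 0.066 without wild-type replicate 2). The part of the chromosome in the level of Wrn was not tested. Fanca, the other member on chromosome 8, had a log2 fold change of 0.02.

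**Figure D3:**
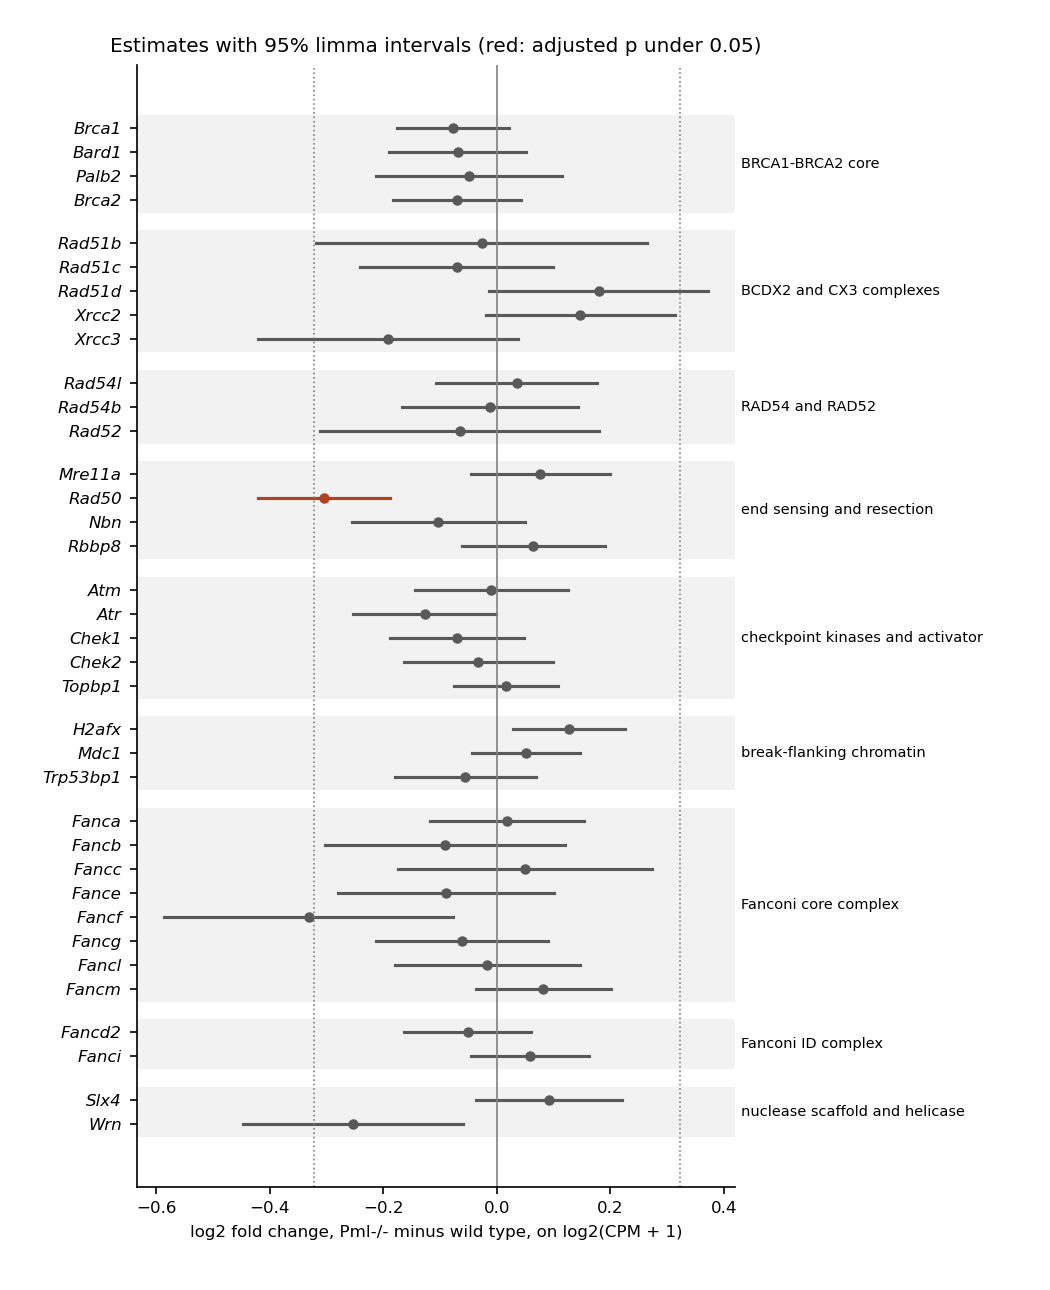
Log2 fold change (Pml-/- minus wild type, on log2(CPM + 1)) of each member with its 95% limma interval, grouped by role, with dotted lines at a 1.25-fold difference in either direction and red for an adjusted p under 0.05. Rad50 alone is red, at -0.30, and 31 of the 36 intervals lie between the dotted lines.

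A p-value above the threshold does not show that a level was the same, so the intervals state how much change the data leave room for. On the log2(CPM + 1) scale the 95% interval stayed within 1.25-fold in either direction for 31 of the 36 members, and for 35 it stayed within 1.5-fold. The exception to the wider limit was Fancf. Over all 12710 tested genes, which include lower ones with wider intervals, 7732 stayed within 1.25-fold. Those beyond 1.25-fold among the members on this scale were Rad50, Fancf, Wrn, Xrcc3 and Rad51d. In CPM the limits of low members reach further, beyond 1.25-fold for Rad51b, so fewer members stay within it. The median distance between replicates of a group was 0.075 in wild-type cells and 0.059 in Pml-/- cells for the members, on the log2(CPM + 1) scale. Their median difference between genotypes, regardless of sign, was 0.069. The latter compares means of 2 libraries, which vary less than single libraries, so it cannot be set directly against the replicate distances. Over all tested genes the same 3 values were 0.075, 0.082 and 0.086. At an unadjusted p under 0.05 there were 5 members, Rad50, Wrn, Fancf, H2afx and Atr, or 13.9% of 36, where 19.3% of all tested genes were. All 5 also had groups that did not overlap, which is the rule at that p: over all tested genes 2454 reached it and 2426, or 19.1% of those tested, met both.

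Genes that work beside the members were counted in the same fit. Of 70 other genes of homologous recombination and the Fanconi pathway, among them the RPA subunits, the BLM helicase complex, the BRCA1-A complex, the ATR clamp and loader and the FANCD2 deubiquitinase, limma called 0, as did edgeR and DESeq2. At an unadjusted p under 0.05 there were 4, 1 lower and 3 higher, and the median was 0.02. The lowest unadjusted p was that of Rpa3, a subunit of the single-strand binding protein RPA, at 46.5 ± 0.766 CPM in wild-type cells against 41.1 ± 0.527 CPM in Pml-/- cells (limma adjusted p = 0.143). Of 12 tested end-joining genes, the rival route for breaks, limma, edgeR and DESeq2 called 0, with 1 at an unadjusted p under 0.05.

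Many repair genes are read most in S phase, so genes of replication and cycling were measured beside them. Of 20 such genes limma, edgeR and DESeq2 called 0, with 3 at an unadjusted p under 0.05, all lower in Pml-/- cells, and a median of 0.002. The 3 were Mki67, a marker of cycling cells, Ccne2, a cyclin of S phase entry, and Rrm2, a subunit of ribonucleotide reductase. Mki67 read 219 and 230 CPM in wild-type cells against 215 and 182 CPM in Pml-/- cells (log2 fold change -0.18, limma adjusted p = 0.121). It passed without Pml-/- replicate 1 (-0.30, limma adjusted p = 0.00223) and without wild-type replicate 1 (-0.22, limma adjusted p = 0.0414), and without Pml-/- replicate 2 it was -0.061 (limma adjusted p = 0.631). Their part in the levels of repair genes was not tested.

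**Figure D4:**
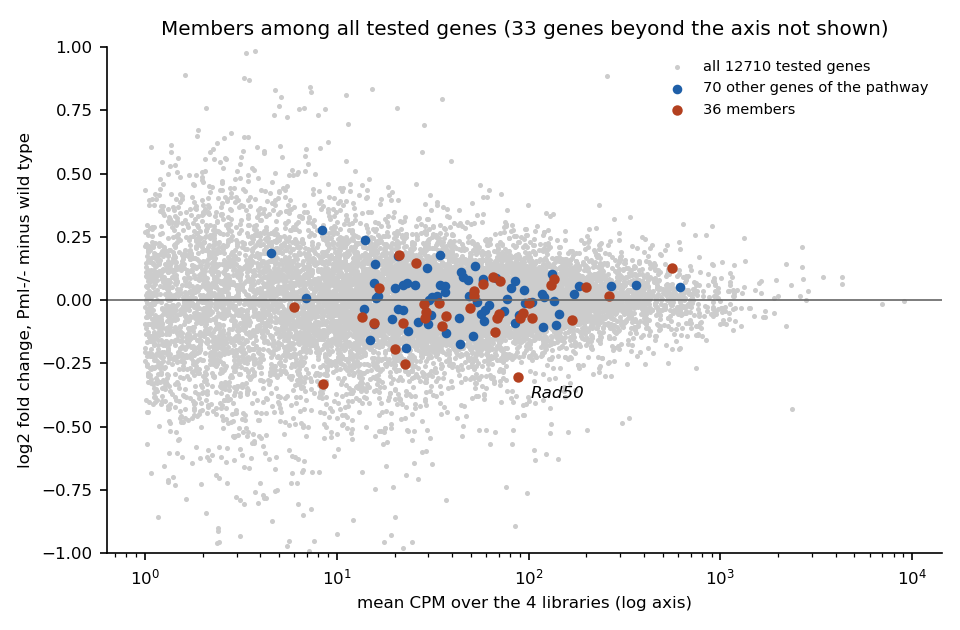
Log2 fold change (Pml-/- minus wild type) against mean CPM on a log axis for all 12710 tested genes in grey, the 70 other pathway genes in blue and the 36 members in red. The members run from -0.33 to 0.18 with Rad50 labelled at -0.30, while 33 genes lie beyond the axis at 1 in either direction.

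The letters before the start sites of the members were read as well, which the choice of genes did not use. E2F factors switch on genes for S phase and repair, and bind sites of the type TTTCCCGC, TTTCGCGC, TTTGCCGC or TTTGGCGC. These 4 words and CCAAT, the core letters bound by NF-Y, were searched on both strands in the 250 bases before each start in a RefSeq promoter table (GRCm38.p6), which held 27 of the 36 members and not Rad50, Wrn, H2afx, Nbn, Fancd2, Rad51d, Rad54b, Rbbp8 or Xrcc2. An E2F-type match stood before 6 of the 27 members (22.2%), beside 4.1% of the 10102 tested genes in the table and 2.16% of all 27025 genes. CCAAT stood before 15 of the 27 members (55.6%), beside 41.2% of the tested genes and 37.5% of all. The short sequences around the matches, 5′ to 3′ on the gene's strand with the matching word in capitals, are shown so that the matches can be read. The 6 were picked for the match, and the other 21 members in the table do not hold it in this window.
Bard1: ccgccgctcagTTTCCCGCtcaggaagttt
Fancg: tttcttttcagTTTCCCGCggaaccgtctc
Chek2: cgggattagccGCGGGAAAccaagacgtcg
Brca2: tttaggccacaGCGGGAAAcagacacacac
Topbp1: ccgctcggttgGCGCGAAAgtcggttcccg
Mdc1: tcttcagcctgTTTCCCGCcggtagcc
Bard1, Fancg and Mdc1 carry TTTCCCGC as read, Chek2 and Brca2 carry it on the other strand, and Topbp1 carries TTTCGCGC on the other strand. The stretches are chr1:71103163-71103192 (minus), chr4:43010335-43010364 (minus), chr5:110839820-110839849 (plus), chr5:150522442-150522471 (plus), chr9:103305187-103305216 (plus) and chr17:35841471-35841497 (plus). For Fancg, Chek2, Brca2 and Topbp1 the stretch lies inside the gene's annotated span, that of Mdc1 reaches into it only with its end, and that of Bard1 lies outside. A match is a description of letters and not a bound site. The 6 genes had log2 fold changes from -0.07 to 0.05, and none passed the test. Whether genes with a match differ from the others was not tested.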

How the data were processed

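RNA was sequenced from 4 libraries, 2 per genotype, grouped by the labels. Per the submitters' processing notes, cutadapt, TopHat and edgeR were used with mm10; versions, annotation, strand use and treatment of reads with several matches are, in the sources used here, not given. The deposited table gives CPM per library and the authors' edgeR log2 fold change (wild type over knockout), p-value and false discovery rate for 24421 genes. Dividing CPM by the value of 1 read gave whole reads for 100% of values (tolerance 0.001).

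The 12710 genes whose mean reached 1 CPM were tested with limma-trend 3.58.1 (R 4.3.3) on log2(CPM + 1), with genotype as the only term and Benjamini-Hochberg adjustment over all of them at 0.05. Alternatives were a pseudocount of 0.25, no filter or one of 5 CPM, TMM scaling, a replicate block, leaving out each library, and edgeR 4.0.16 and DESeq2 1.42.0 on recovered reads. The fits were also run on simulated counts in which every gene had the same spread beyond counting error. That run checked the code and not the calls reported here. Members were described by role: every member was named, in full where it passed, or where groups did not overlap at an unadjusted p under 0.05. The members and lists were chosen with earlier results of these data known. Symbols were matched to RefSeq GRCm38.p6; of 13 end-joining genes, Paxx was not matched. With 31.4 to 44.1 reads per CPM, counting error matters for the lowest members, and the number of libraries limits the others.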

Additional observations from a re-analysis of the deposited data

How the results depend on the processing

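Rad50 remained called lower in all 11 alternatives, and no other member was called in any alternative that kept all 4 libraries. The count of members called was 1 to 2 when each library was left out in turn: Wrn joined without wild-type replicate 2 and H2afx without Pml-/- replicate 1. The count over all genes was 687 (439 lower, 248 higher), 298 with no filter on low values, and 423 to 879 when each library was left out, the lowest without Pml-/- replicate 2 and next 446 without wild-type replicate 1. With the replicate block it was 1198, and that of S phase and cycling genes was 1 (Mki67, limma adjusted p = 0.0312) in place of 0. The shared replicate numbers are only numbers, since no label ties them to a day or culture; differences between replicates 1 and 2 correlated at 0.12 between genotypes across 12710 genes, which are not independent. The S phase count was 0 to 2 with a library left out, with Mcm5 as the second gene without Pml-/- replicate 1 (limma adjusted p = 0.0367). The counts of the 70 other pathway genes and the 12 end-joining genes were 0 in every alternative. The sign of 9 members near 0 changed when 1 library was left out, and never in another setting. For Atm, Fanca, Fancc, Rad52 and Rad54b it changed in 2 of these fits. Leaving out each library gave log2 fold changes of -0.10 to 0.085 for Atm, -0.025 to 0.061 for Fanca, -0.066 to 0.17 for Fancc, -0.054 to 0.021 for Fancl, -0.18 to 0.12 for Rad51b, -0.14 to 0.0030 for Rad51c, -0.19 to 0.054 for Rad52, -0.048 to 0.026 for Rad54b and -0.035 to 0.11 for Rad54l. In each of these fits the lone library is assumed to vary like the other group.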

Other observations

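Of the 8 pluripotency markers 3 passed the limma test. Zfp42, which encodes the marker REX1, fell (log2 fold change -0.27, limma adjusted p = 0.00251). It lies on chromosome 8, where 52 tested genes were called lower and 8 higher, and the part of the chromosome in its level was not tested. Tfcp2l1, a factor of naive pluripotency, rose by 0.29 on the log2 scale (limma adjusted p = 0.0241), with 726 and 903 CPM in the wild-type libraries and 1005 and 981 CPM in the Pml-/- ones. The wild-type libraries stood apart from each other: without wild-type replicate 1 the value was 0.14 (limma adjusted p = 0.319) and without wild-type replicate 2 it was 0.45 (limma adjusted p = 9.65e-10). The call was also lost without Pml-/- replicate 1 (limma adjusted p = 0.0509), and in 4 of the 11 other settings in all. Tdgf1, a Nodal co-receptor, rose by 0.17 (limma adjusted p = 0.0444), a call lost in 6 of the 11. Those without wild-type replicate 1, wild-type replicate 2 and Pml-/- replicate 2 gave limma adjusted p-values of 0.0811, 0.195 and 0.176. Their part in the level of Rad50 was not tested.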
